A study of Mus musculus with 8 samples.

Results

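Old and fetal brain were compared by sequencing polyadenylated RNA of Cav1 knockout (KO) mice, which lack caveolin 1, the main protein of the membrane pits called caveolae. The comparison set 2 libraries from Cav1 KO mice at week 70 against 3 libraries from Cav1 KO fetuses at gestation day 15, which are 5 of the 8 libraries of the series. All 5 are labelled whole brain. Of 18217 protein-coding genes in the count table, the 15085 with enough counts in these 5 libraries to be tested are described here, and processed pseudogenes are set aside. The remaining 3 libraries, from wild-type (WT) fetuses of day 15, entered only as an alternative reference. Both ages carried the knockout, and no WT library of week 70 was analysed here, so the part of the genotype in any age difference was not tested. The labels name biological replicates for the fetal brains and give none for week 70. The p-values measure the spread between these libraries.

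At mid to late gestation the mouse forebrain is still being built: radial glia divide along the ventricles, intermediate progenitors and young neurons leave them, and axons are laid down. Most synapses, astrocytes and myelin appear only after birth, and microglia, the resident macrophages, seed the brain early and multiply later. In old brain, microglia and astrocytes are known for raised complement, antigen presentation and interferon-related genes. A comparison that spans these ages therefore holds development, adult function and ageing in 1 difference, and these cannot be told apart with 2 time points.

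Cav1 had 0, 3 and 1 counts in KO day 15 replicates 1 to 3 and 1 and 5 counts in week 70 replicates 1 and 2, against 367, 218 and 329 in the WT fetal libraries, so each KO library followed its genotype label. Total counts were 14110031 to 15245283 at day 15 and 20203233 and 18924304 at week 70. A gene with no count could still hold up to 3 counts, which is 0.148 to 0.213 CPM (counts scaled to library size) and covers counting error only. Reads assigned to processed pseudogenes took 6.15% to 6.49% of the counts at day 15 and 0.306% in both libraries of week 70. Protein-coding genes took 88.1% to 88.4% and 97.1% to 97.5% of the counts. The X-inactivation transcript Xist had 66033, 79672 and 93272 counts at day 15 against 7969 and 4 at week 70. Y-linked genes held 2, 2 and 0 counts at day 15, 0 in week 70 replicate 1 and 2219 in week 70 replicate 2, so the libraries of week 70 differed from each other in these genes and are not repeats of one sample.

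The label whole brain was set against marker genes of brain regions, a list chosen after values were seen. Markers of cortex and hippocampus were present at both ages, with summed normalised levels of 514 to 590 CPM at day 15 and 905 and 897 CPM at week 70. Markers of the posterior and ventral brain were mixed at week 70, and some were at or near 0. The serotonin transporter gene Slc6a4 fell from 43, 35 and 36 counts to 0 and 0. Gabra6, which marks adult cerebellar granule cells, had 11 and 3 counts at week 70, and Pcp2 of Purkinje cells had 8 and 5. The hypothalamic regulator Nkx2-1 fell from 385, 431 and 347 counts to 17 and 15. Other markers of these regions did not fall: the hypothalamic peptide gene Avp rose from 25, 19 and 29 counts to 91 and 69 and Oxt from 7, 6 and 4 to 40 and 33, the serotonin synthesis gene Tph2 had 15, 35 and 25 against 36 and 37 and was not called, and the cerebellar Cbln3 rose from 15, 18 and 11 to 56 and 26. Zic1, which the cerebellum shares with other regions, fell from 2952, 3031 and 2850 counts to 276 and 1175. The fetal libraries differed in hindbrain markers as well: Hoxa5 had 30, 173 and 1 counts in replicates 1 to 3.

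The week 70 libraries also differed from each other by region. All 8 striatal markers were higher in replicate 1, for example Drd2 with 646 against 101 counts, Adora2a with 969 against 53 and Ppp1r1b with 5878 against 1580. Choroid plexus genes stood out in replicate 2: Ttr, the transthyretin gene, had 910 counts in replicate 1 and 32809 in replicate 2. Over 13869 protein-coding genes the log2 ratio of replicate 2 to replicate 1 had a median of 0.03 and an SD of 0.40, and 2.41% of the genes differed by more than 1 on the log2 scale. The part of region and dissection in the age differences below was not tested.

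**Figure D1:**
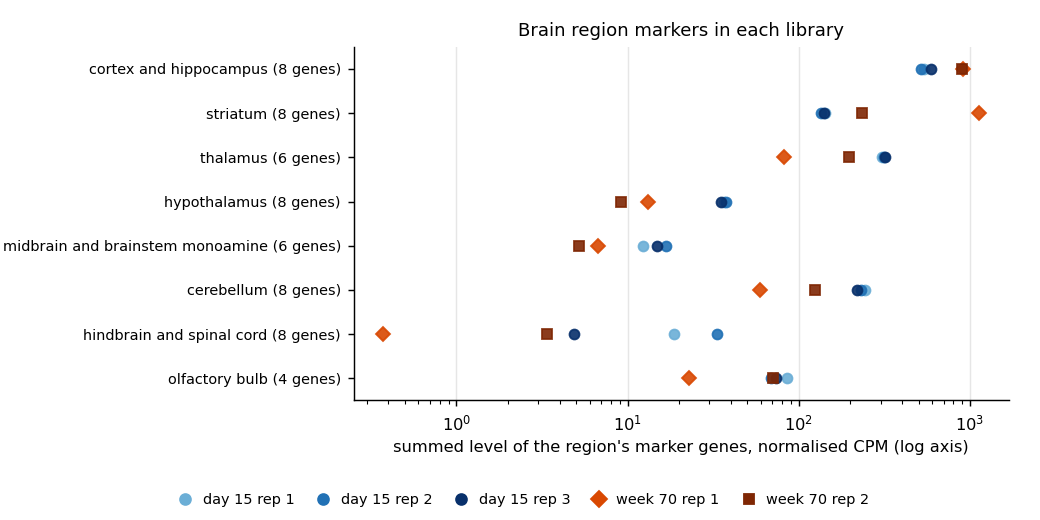
Summed normalised CPM (log axis) of marker genes of 8 brain regions in each library, with circles for the 3 day 15 libraries and a diamond and a square for week 70 replicates 1 and 2. Striatal markers sum to 1128 CPM in week 70 replicate 1 and 233 CPM in replicate 2, and hindbrain markers sum to 0.374 and 3.40 CPM.

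Most of the protein-coding transcriptome differed between the ages. With edgeR's quasi-likelihood test and an adjusted p under 0.05, 12219 of 15085 genes were called (81%), 7027 higher at week 70 (46.6%) and 5192 lower (34.4%). A change of at least 1 on the log2 scale was reached by 8092 called genes (53.6%). At least 3 on that scale was reached by 1226 genes that rose and 770 that fell. For 13143 genes (87.1%) the CPM of the ages did not overlap. These shares are the background for every count below, and a list with a similar share says nothing particular. The median log2 fold change of protein-coding genes was 0.23, and it was -0.04 when only protein-coding genes were normalised together, -0.02 with upper-quartile scaling and -0.05 with an offset on transcript length and GC. List medians are therefore given as relative medians, the median of the list minus that of all tested protein-coding genes. The fold changes of 82 of 155 genes chosen by rule moved by more than 1.5 times when the WT fetal libraries were the reference, 64 of them downward, and those of 85 moved as much with the offset. Unless another setting is named, each log2 fold change compares 2 libraries with 3. A value that follows ± is the standard error (SE).

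Across 6 programmes of listed genes, the cell cycle fell and glia, synapse and immune genes rose. Of 122 tested cell cycle genes, 103 were called lower and 13 higher. Of 90 glial genes, 79 were higher and 7 lower, of 172 synaptic and excitability genes 141 and 20, and of 152 immune genes 126 and 12. Maturation genes, which hold both early and late lists, split into 58 higher and 81 lower of 158. Every list member that was called also had no overlap of CPM between the ages, other than members of the fibroblast, choroid plexus and pituitary lists. In bulk tissue, fewer cells of a type and less RNA per cell cannot be told apart.

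**Figure D2:**
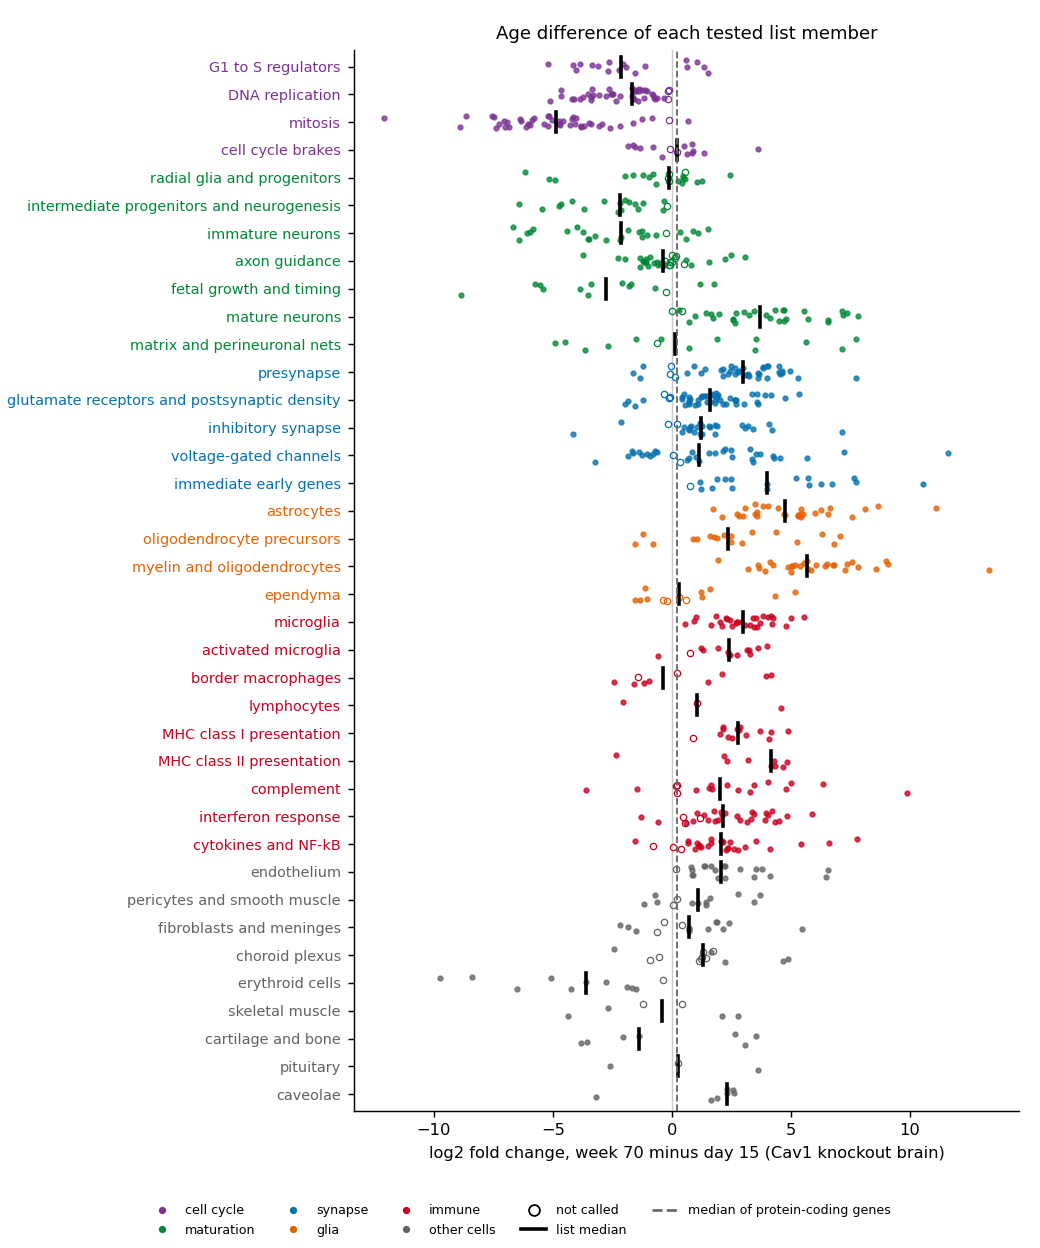
Log2 fold change (week 70 minus day 15) of every tested member of 38 gene lists, coloured by programme, with open circles for members that were not called, a black bar for the list median and a dashed line for the median of all tested protein-coding genes (0.23). The mitosis list lies furthest to the left, with a median of -4.89, and the myelin list furthest to the right, with a median of 5.68.

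Most genes of mitosis were lower in the old brain, and some of them were almost absent. The list holds 46 genes of spindle, kinetochore and mitotic kinases, and 44 were called lower, 1 higher and 1 not, with a relative median of -5.12. Summed levels were 1558, 1604 and 1668 CPM at day 15 and 209 and 227 CPM at week 70. The gene Mki67, whose protein coats mitotic chromosomes and is the usual marker of proliferation, had 2086, 2254 and 2445 counts at day 15 against 20 and 5 at week 70. This was a log2 fold change of -7.37 ± 0.25 (SE) with an adjusted p of 1.15e-09. The kinetochore scaffold Knl1 had 489, 566 and 647 counts at day 15 against none in either old library, so it was at least 174-fold lower. Every fetal library was far above both old ones for Mki67 and Knl1.

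The catalytic core of mitosis fell with them. Cdk1, the mitotic kinase, went from 632, 698 and 603 counts to 6 and 3, with a log2 fold change of -7.01 ± 0.23. Its partner cyclin Ccnb1 went from 342, 382 and 333 counts to 1 and 3. Aurkb, the kinase of the chromosomal passenger complex, went from 232, 183 and 225 counts to 2 and 0, whereas Incenp, the scaffold of the same complex, had 449, 485 and 415 counts against 416 and 346 and was not called. Bub3, a checkpoint protein that also acts outside mitosis, went against the list: it rose from 1029, 1019 and 944 counts to 1383 and 1538, a log2 fold change of 0.67 ± 0.10.

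Promoters of mitotic genes are known to carry a cell cycle homology region (CHR), read by the DREAM and MuvB complexes, together with CCAAT boxes bound by NF-Y. The RefSeq promoters of the list (42 windows of 39 genes, GRCm38.p6, 250 bases upstream of the start, both strands) were searched for TTTGAA as the CHR and for CCAAT, which did not overlap each other in these windows. TTTGAA was found in 42.9% of the mitosis windows, against 10.7% of the promoters of all tested protein-coding genes and 16.0% of all 32851 promoters. CCAAT was found in 76.2%, against 34.8% and 33.8%, and both motifs in 40.5%, against 3.98% and 5.55%. In the DNA replication list both motifs were found in 7.50% of 40 windows, and among G1 to S regulators in 22.2% of 18 windows, so their share was above that of tested genes there too. The E2F motif GGCGGGAA was in none of the mitosis windows, in 12.5% of the DNA replication windows and in 3.24% of those of tested genes. Bub3, the member that rose, also held TTTGAA and CCAAT. Promoters of Cdc20, Top2a and Kif11, which hold both motifs, are shown, chosen by motif position and not by fold change. In them TTTGAA started within 50 bases of the start and CCAAT within 80, outside annotated exons. A further 5 windows were left out for overlap with an annotated exon. TTTGAA (or TTCAAA on the other strand) and CCAAT (or ATTGG) are in capitals and all other bases in lower case, 5′ to 3′ on the gene's strand. Cdc20, the activator of the anaphase complex, lies on the minus strand (chr4:118437353-118437423) and had a log2 fold change of -4.18. Top2a, the topoisomerase that untangles sister chromatids, lies on the minus strand (chr11:99024190-99024269) and had -6.05, and the spindle motor gene Kif11 lies on the plus strand (chr19:37376302-37376381) and had -5.22. A match describes the letters of the window and is not evidence of binding.
Cdc20: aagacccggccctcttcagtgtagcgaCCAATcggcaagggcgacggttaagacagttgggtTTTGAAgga
Top2a: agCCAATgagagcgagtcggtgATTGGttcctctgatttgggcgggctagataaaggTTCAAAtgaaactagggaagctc
Kif11: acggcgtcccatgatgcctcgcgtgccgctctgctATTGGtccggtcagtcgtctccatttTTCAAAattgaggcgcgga

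DNA replication genes fell less far. Of 43 genes, 40 were called lower and 0 higher, with a relative median of -1.90. The initiation factor Mcm10 had 112, 122 and 117 counts at day 15 against 0 and 6 at week 70, with none of the fetal libraries near the old ones. Rrm2, which makes deoxynucleotides, went from 516, 626 and 586 counts to 28 and 30. Tyms, of thymidylate synthesis, went from 389, 423 and 440 counts to 33 and 25. Pcna, the sliding clamp of replication and repair, had 1259, 1173 and 1169 counts against 633 and 651, a log2 fold change of -0.79 ± 0.10. A processed pseudogene of Pcna held 919, 940 and 1079 counts at day 15 against 2 and 6 at week 70, and with those counts added the log2 fold change of Pcna was -1.70. Against the WT fetal libraries it was 0.092. Gins4, Rfc5 and Rpa2 were not called.

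Regulators of the passage from G1 to S split, with 13 of 18 lower and 5 higher and a relative median of -2.38. Cdk4, a kinase of G1, went from 4418, 4506 and 4333 counts to 635 and 615, a log2 fold change of -2.71 ± 0.09. The S-phase repressor E2f7 went from 190, 229 and 202 counts to 7 and 3. Cyclins of the same step moved the other way: Ccnd1 rose from 367, 343 and 295 counts to 869 and 723, although its log2 fold change was -0.19 against the WT fetal libraries, and Ccne1 rose from 96, 107 and 86 counts to 255 and 246. Among genes that restrain the cycle, 7 of 15 were higher and 6 lower. The stress-inducible Gadd45b rose from 20, 38 and 29 counts to 440 and 230, while the imprinted inhibitor Cdkn1c fell from 711, 774 and 601 counts to 138 and 216. With the length and GC offset, 4 of these genes were higher in place of 7.

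The programme of neuron production was lower at week 70. Of 18 genes of intermediate progenitors and neurogenesis, 17 were called lower and none higher, with a relative median of -2.39. Neurog2, which commits cortical progenitors to neurons, went from 774, 686 and 767 counts to 19 and 12, and Eomes, the marker of intermediate progenitors, from 686, 663 and 661 counts to 29 and 39. Nhlh2, a factor of new neurons, fell most, from 846, 830 and 868 counts to 3 and 15, with a log2 fold change of -6.42 ± 0.29. Btg2 was the member that was not called, and it had 798 counts in week 70 replicate 1 against 203 in replicate 2.

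Radial glia genes split, with 9 of 21 lower, 8 higher and a relative median of -0.35, near the shares of all protein-coding genes. Fabp7, the brain lipid-binding protein, went from 13563, 13329 and 13682 counts to 312 and 386, a log2 fold change of -5.16 ± 0.15. The growth regulator Hmga2 had 76, 97 and 92 counts against 1 and 1, a ratio of 81.4 with a 95% counting interval from 22.3 to 676. Hey1, a Notch target, rose from 213, 234 and 213 counts to 1178 and 1039. Sox2 rose slightly, from 1184, 1235 and 1093 counts to 1241 and 1316, a log2 fold change of 0.25. Emx1 rose by 1.27 on the log2 scale, but its log2 fold change was -0.12 with the length and GC offset. With the WT fetal libraries as reference, 14 of the radial glia genes were lower.

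Genes of young neurons lost most of their high fetal level. Of 26 genes of immature neurons, 20 were called lower and 5 higher, and the list summed to 13168 to 13526 CPM at day 15 and to 3847 and 3933 CPM at week 70. Dcx, the microtubule protein of migrating neurons, went from 24574, 27943 and 28104 counts to 301 and 269, a log2 fold change of -6.44 ± 0.13. The transcription factor Sox11 went from 10887, 12395 and 11725 counts to 201 and 177, and the surface protein Cd24a from 16508, 17425 and 18668 to 116 and 196. The growth cone gene Gap43 kept more: it had 9725, 10092 and 9071 counts against 3611 and 3259. The members that rose include the deep-layer cortical factor Tbr1, from 947, 1001 and 1042 counts to 2698 and 2530, although its log2 fold change was -0.24 against the WT fetal libraries. Stmn1, a tubulin-binding protein, had 6166, 6521 and 5999 counts at day 15 against 12887 and 11429 at week 70 and was called higher at 1.08 ± 0.09. Its processed pseudogene held 15768, 17142 and 16087 counts at day 15 against 140 and 130 at week 70, and with those counts added Stmn1 was lower, at -0.82, so its direction depends on how reads were divided between the copies.

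Guidance genes were mixed. Of 33 receptors and ligands of axon guidance, 18 were lower and 6 higher, with a relative median of -0.59. Epha3, an ephrin receptor, fell most, from 1269, 1377 and 1488 counts to 97 and 92. The netrin receptors Unc5a and Unc5b rose, from 447, 487 and 403 counts to 2463 and 2184 and from 165, 133 and 101 counts to 967 and 1114. Of the semaphorin and plexin genes, Sema3f fell from 1201, 1299 and 1078 counts to 197 and 264, and Plxna1 had a log2 fold change of 0.00 and was not called. The guidance list kept a large part of its level, with sums of 2274 to 2328 CPM at day 15 and of 1677 and 2000 CPM at week 70.

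Genes of fetal growth and developmental timing fell, with 11 of 14 lower and 2 higher and a relative median of -2.98. Igf2bp1, an RNA-binding protein of fetal tissues, had 715, 875 and 877 counts at day 15 against 0 and 3 at week 70, a ratio of 505 with a 95% counting interval from 173 to 2453. Lin28b, which blocks let-7 maturation, went from 675, 764 and 758 counts to 81 and 48, and Mex3a, an RNA-binding protein of progenitors, from 2992, 3496 and 3209 counts to 48 and 80. The insulin-like growth factor gene Igf2 had only 70, 111 and 85 counts in the KO fetal libraries and 68 and 68 at week 70, and was not called, though against the WT fetal libraries its log2 fold change was -3.33. Hmga1 was called higher, from 475, 562 and 568 counts to 1076 and 1140, but its log2 fold change was 0.01 with the length and GC offset.

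Genes of mature neurons rose. Of 32 genes, 30 were called higher and none lower, with a relative median of 3.46, and the list summed to 3235 to 3447 CPM at day 15 and to 26280 and 25515 CPM at week 70. Camk2a, the kinase of excitatory synapses, had 578, 682 and 614 counts at day 15 against 91603 and 71372 at week 70, a log2 fold change of 7.14 ± 0.14. Nrgn, a postsynaptic calmodulin-binding protein, had 154, 166 and 156 counts against 27286 and 20866. Of interneuron genes, Pvalb went from 17, 27 and 23 counts to 2137 and 1767, and Vip from 3, 4 and 4 counts to 961 and 609, a log2 fold change of 7.80 ± 0.28, while Calb2 had 492, 401 and 423 counts against 204 and 866 and was not called. The microtubule protein gene Map2 rose by 0.31, and Mapt, the tau gene, had 10170, 10844 and 8724 counts against 8753 and 9719 and was not called. Penk and Ppp1r1b, which striatal neurons express, rose in both libraries but were 2967 and 5878 counts in replicate 1 and 661 and 1580 in replicate 2.

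Of 14 extracellular matrix genes, 7 were higher and 6 lower, shares near those of all protein-coding genes, and against the WT fetal libraries 4 were higher. Single members moved far. The link protein Hapln4 went from 19, 14 and 17 counts to 3007 and 3509, a log2 fold change of 7.72 ± 0.16, and Hapln1 from 13, 9 and 13 counts to 555 and 524. Tenascin C (Tnc), of the juvenile matrix, went from 1432, 1476 and 1450 counts to 48 and 42, and the hyaluronan synthase gene Has2 from 95, 102 and 113 counts to 12 and 3. Acan, the net proteoglycan aggrecan, was thinly counted, with 5, 7 and 2 counts against 34 and 68. Its log2 fold change of 3.54 turned to -1.39 against the WT fetal libraries.

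**Figure D3:**
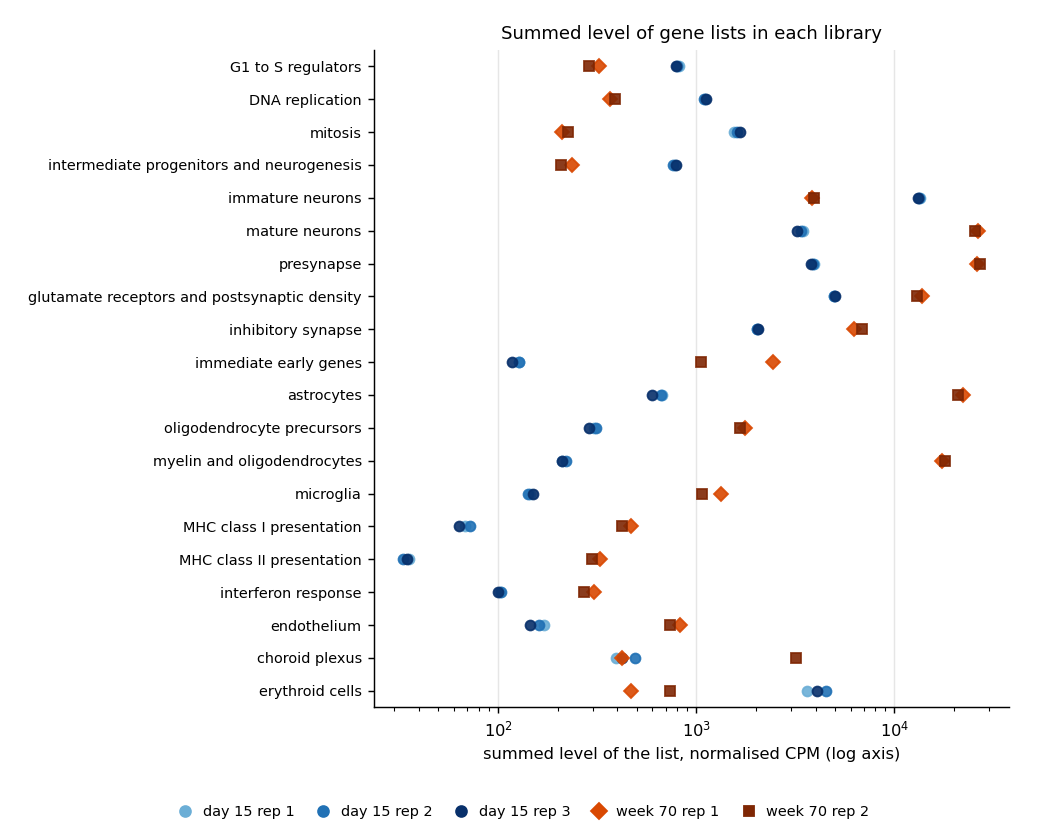
Summed normalised CPM (log axis) of 20 gene lists in each library, with circles for the 3 day 15 libraries and a diamond and a square for week 70 replicates 1 and 2. Choroid plexus is the one list shown in which the ages overlap, and the libraries of week 70 are apart from each other in immediate early genes (2451 and 1060 CPM) and choroid plexus genes (420 and 3172 CPM).

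Known early and late isoforms or paralogs were read as 20 pairs. In 6 pairs the early member was called lower and the late member higher, in 6 both were higher, and in 5 both were lower. The late member's share of the pair's level per length was higher at week 70 without overlap in 14 pairs. The share moved furthest for the vesicular glutamate transporters: Slc17a7 made up 12.6%, 10.3% and 11.2% of the pair at day 15 and 98.4% and 94.7% at week 70. Slc17a7 rose by 6.57 on the log2 scale, while its early partner fell least of the early members in the 6 pairs. Slc17a6, the early member, went from 1946, 2256 and 2188 counts to 399 and 1288, a fall by 1.20 on the log2 scale that was called by edgeR and not by DESeq2, and it was -0.56 without week 70 replicate 1 and -2.33 without replicate 2. Of 6 thalamic markers, Slc17a6 among them, 5 were higher in replicate 2 and 1 in replicate 1. Their sums were 82.4 and 196 CPM in replicates 1 and 2, of which Slc17a6 itself made up 24.9 and 84.2 CPM. The part of thalamic tissue was not tested.

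The neonatal sodium channel Scn3a gave way to Scn1a, whose share went from 21.5%, 20.4% and 20% to 89.6% and 89.2%. The share of the myelin-linked tubulin Tubb4a against Tubb2b went from 4.21%, 4.44% and 3.90% to 83.4% and 87.3%. Of the chromatin and nuclear envelope pairs, Ezh1 against Ezh2 went from 18.3%, 17.8% and 17.9% to 93.6% and 97.1%, and Lmna against Lmnb1 from 4.45%, 5.13% and 3.78% to 75% and 74.4%. The lecticans exchanged as well: Vcan fell from 4234, 4956 and 5496 counts to 238 and 161, and Bcan rose from 592, 596 and 428 counts to 5857 and 5423.

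In some receptor and transporter pairs both members were called higher. The NMDA receptor subunit Grin2a rose from 135, 117 and 136 counts to 1280 and 1578, and its share went from 6.30%, 5.34% and 6.52% to 33.5% and 36.7%. The early subunit Grin2b was also called higher, by 0.51, though its log2 fold change was -0.25 against the WT fetal libraries. The chloride exporter Slc12a5 rose by 2.94 against 0.52 for the importer Slc12a2, whose call was lost when only protein-coding genes were normalised together. Of the BAF chromatin complex, both PHD finger subunits fell, and the neuronal one fell further: Dpf1 fell by 1.45 and Phf10, the progenitor subunit, fell by 0.42, a call lost with the length and GC offset (-0.17, adjusted p = 0.092 with edgeR). Of the actin-related subunits the progenitor one fell further: Actl6a fell by 1.92 and neuronal Actl6b fell by 0.33. Ptbp2, the neuronal splicing repressor, also fell, from a mean of 416 to 91.2 CPM, more than Ptbp1, from 59.7 to 26.5 CPM.

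**Figure D4:**
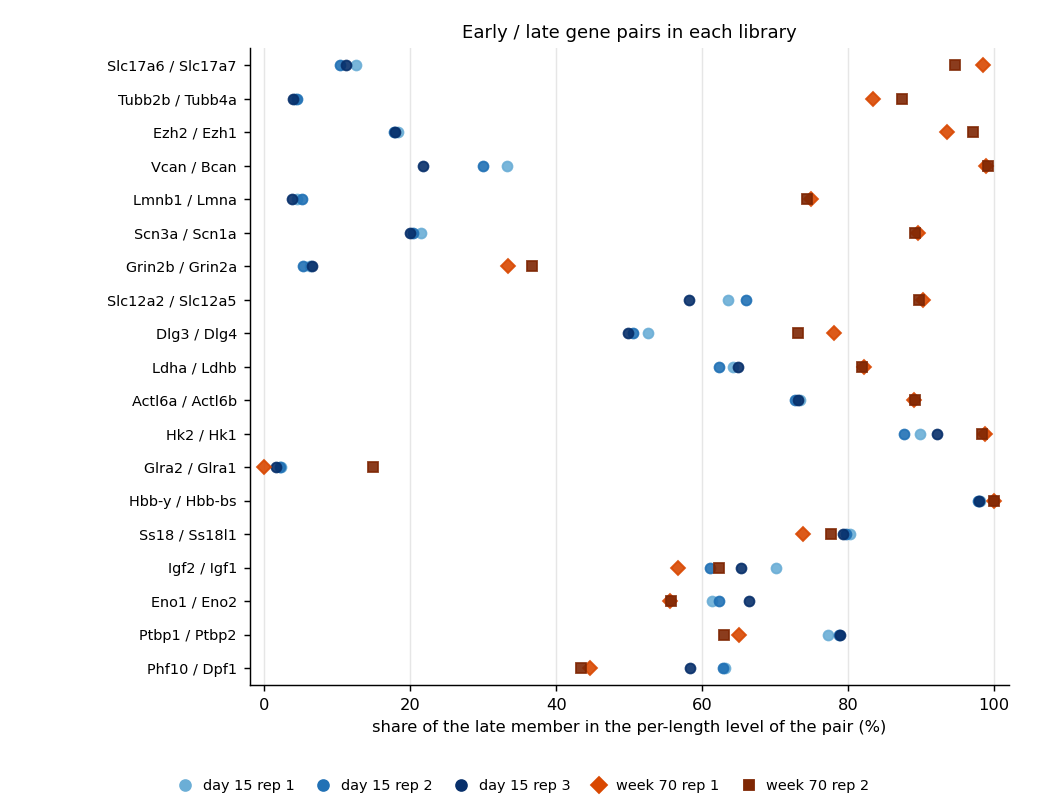
Share (%) of the late member in the level per length of 19 early / late gene pairs in each library, ordered by the difference between the ages, with circles for day 15 and a diamond and a square for week 70 replicates 1 and 2. The glutamate transporter, tubulin, Ezh, lectican, lamin and sodium channel pairs move from 33.2% or less to 74.4% or more, and the Dpf1 and Ptbp2 shares near the bottom are lower at week 70.

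Most glycolytic genes of the pairs rose, early and late members alike. Eno1 went from 510, 546 and 378 counts to 15275 and 15798, a log2 fold change of 5.14 ± 0.15, and the neuronal Eno2 from 709, 789 and 654 counts to 16756 and 17366. Ldhb rose by 3.28 and Ldha by 1.91. Hk1, the brain hexokinase, rose by 3.06, while Hk2 had a log2 fold change of 0.16, was not called and changed sign under several settings. Eno1b, a near-identical copy of Eno1, had 323, 364 and 300 counts against 287 and 242 and was not called, and the counts of both are uncertain where reads were divided between them.

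Presynaptic genes rose. Of 41 genes, 35 were called higher and 3 lower, with a relative median of 2.76, and the list summed to 3787 to 3906 CPM at day 15 and to 26082 and 26990 CPM at week 70. Snap25, a SNARE protein of vesicle fusion, went from 2436, 2913 and 2867 counts to 61740 and 53118, a log2 fold change of 4.51 ± 0.11. The vesicle proteins Syp and Syn1 went from 1236, 1174 and 1028 counts to 14410 and 15637 and from 486, 492 and 493 counts to 9866 and 10519. Cplx3, a complexin, had 0, 3 and 4 counts against 643 and 341. Syn3, the synapsin of early neurons, fell from 447, 485 and 434 counts to 156 and 175, and the priming factor Unc13b from 1920, 1987 and 2001 to 606 and 569. The scaffold Pclo, with 2177, 2415 and 2356 counts against 2526 and 2185, was not called.

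On the postsynaptic side the shift was smaller. Of 50 glutamate receptor and scaffold genes, 43 were higher and 4 lower, with a relative median of 1.35. Grin1, the obligatory NMDA subunit, went from 540, 544 and 437 counts to 5235 and 6030, and the scaffold Dlg4 (PSD-95) from 3396, 3576 and 3000 to 22607 and 17034. Grin2c rose most, from 43, 48 and 22 counts to 1602 and 1217. The members that fell include Gria2, which makes AMPA receptors impermeable to calcium, went from 18412, 20839 and 22508 counts to 6296 and 6822, a log2 fold change of -1.53 ± 0.11. The kainate receptors Grik1 and Grik2 fell from 619, 709 and 688 counts to 165 and 177 and from 2708, 3251 and 3644 counts to 788 and 733.

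Most genes of inhibitory synapses rose, and voltage-gated channels moved both ways. Of 28 inhibitory genes, 24 were higher and 2 lower, with a relative median of 0.99. Gabrd, the subunit of extrasynaptic GABA receptors, rose from 10, 13 and 14 counts to 2019 and 1208, while Gad2, one of the GABA-making enzymes, rose by only 0.41. The members that fell belong to glycine transmission. Slc6a5, the glycine transporter and one of the hindbrain and spinal cord markers, had 143, 145 and 41 counts against 5 and 6. Glra2, the early member of the glycine receptor pair, had 1194, 1317 and 1389 against 213 and 322. Hindbrain markers, Slc6a5 among them, summed to 18.6, 33.1 and 4.85 CPM in day 15 replicates 1 to 3 and to 0.374 and 3.40 CPM at week 70. In the same day 15 libraries Glra2 stood at 73.0, 74.5 and 82.2 CPM. The part of hindbrain tissue in the fall of either gene was not tested. Of 35 voltage-gated channels, 22 were higher and 11 lower. The sodium channel subunit Scn4b rose most, from 1, 3 and 0 counts to 6071 and 2475, and was higher in replicate 1. The 11 channels that fell include Hcn3 and Hcn4 and 6 calcium channel genes, among them Cacna1e, from 4615, 4962 and 5409 counts to 1620 and 1951.

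Immediate early genes, which neurons switch on within minutes of activity, were higher at week 70 in 17 of 18 cases, but the week 70 libraries differed. Fos had 10, 19 and 13 counts at day 15 against 1287 and 152 at week 70. Arc, a synaptic effector, had 29, 36 and 22 counts against 9893 and 997. Junb had 40, 40 and 34 against 3214 and 575, so replicate 1 was above replicate 2 in each. Egr1 had 33, 36 and 15 counts against 7386 and 3878, a log2 fold change of 7.75 ± 0.31. The median log2 ratio of replicate 2 to replicate 1 over this list was -1.11, against 0.03 over all genes. Leaving out each library in turn left 16 to 18 of the genes higher. The members Bdnf and Egr3 were close in both, with 459 and 529 counts and 3848 and 3587 counts. Npas4 had 197, 222 and 179 counts against 538 and 96 and was not called.

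Astrocyte genes rose without exception. All 29 were called higher, with a relative median of 4.52, and they summed to 598 to 672 CPM at day 15 and to 22099 and 20972 CPM at week 70. Slc1a2, the main glutamate transporter, had 1475, 1863 and 1799 counts at day 15 against 73233 and 62488 at week 70, a log2 fold change of 5.43 ± 0.12. Gfap, the intermediate filament of mature and reactive astrocytes, went from 16, 20 and 30 counts to 7394 and 8974. Gpr37l1, an astrocyte receptor, had 3, 3 and 2 counts against 6194 and 5190, a log2 fold change of 11.11 ± 0.17. Sox9, which radial glia also use, rose least, from 304, 339 and 359 counts to 1105 and 962.

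Of all lists, that of myelin and oligodendrocytes rose furthest. All 30 genes of myelin and oligodendrocytes were called higher, with a relative median of 5.45, and their sum went from 210 to 221 CPM at day 15 to 17333 and 17997 CPM at week 70. Mbp, the myelin basic protein, had 283, 319 and 288 counts against 107716 and 102990. Mobp, another structural protein of myelin, had 2, 5 and 3 counts against 33956 and 31288, a log2 fold change of 13.32 ± 0.18, the largest among the tested genes named here. Mog, a late myelin surface protein, rose least, from 399, 448 and 425 counts to 1521 and 1452. Precursor genes rose less: 15 of 18 were higher and 3 lower, with a relative median of 2.11. The lineage factor Olig2 went from 177, 173 and 160 counts to 900 and 861 and Sox10 from 28, 51 and 33 to 1320 and 1331. The transcription factor gene Sox6 fell from 822, 897 and 909 counts to 485 and 447, and the protocadherin gene Pcdh15 from 524, 583 and 649 to 153 and 211. Ependymal genes stayed low and mixed, with 5 of 13 higher and 4 lower. Foxj1, the ciliary regulator, had 117, 118 and 96 counts against 164 and 319, and its direction turned with the length and GC offset and against the WT fetal libraries.

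Microglia were present at both ages and higher at week 70. All 30 genes were called higher, with a relative median of 2.76, and the list summed to 142 to 149 CPM at day 15 and to 1334 and 1065 CPM at week 70. Markers of resting microglia were among them: Tmem119 went from 19, 23 and 24 counts to 675 and 454. The fractalkine receptor gene Cx3cr1 went from 82, 68 and 82 to 1577 and 1100. P2ry12, a purine receptor, went from 74, 97 and 97 to 720 and 656. Selplg rose most, by 5.54 ± 0.21. The general leukocyte gene Ptprc rose less, from 39, 44 and 46 counts to 82 and 69. Replicate 1 was above replicate 2, with a median log2 ratio of -0.30 over the list.

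Of 14 tested genes of activated microglia, 12 were higher and 1 lower. The cathepsin genes Ctsb and Ctsd rose from 1377, 1394 and 1135 counts to 15651 and 13775 and from 514, 532 and 482 to 4604 and 4184, which neurons and astrocytes also express. Some genes closer to the disease-associated state had few counts. Gpnmb was called higher and changed most among the 14 tested genes, from 8, 6 and 0 counts to 58 and 83. Itgax, Cst7, Ccl3 and Ccl4 had too few counts to be tested. The growth factor gene Igf1, which neurons also express, was the one that fell, from 284, 302 and 277 counts to 154 and 194, and with the length and GC offset its log2 fold change was 0.13. Of 10 genes of macrophages at the brain's borders, 4 were higher and 4 lower, shares near those of all protein-coding genes, and 2 were higher with a filter of a mean of at least 10 counts. The lymphatic and perivascular marker Lyve1 fell from 54, 51 and 62 counts to 13 and 6, and Mrc1 from 91, 139 and 130 to 58 and 55, while Cd163 rose from 8, 14 and 15 to 69 and 30. Lymphocyte genes were low, with 3 of 14 listed genes tested, 1 higher, 1 lower and 1 not called. Lck, the highest of them, fell from 102, 92 and 109 counts to 12 and 32, a log2 fold change of -2.07 ± 0.38. Cd4 had 4, 7 and 4 counts at day 15 against 214 and 16 at week 70. Its log2 fold change of 4.58 dropped to 1.82 when week 70 replicate 1 was left out. The T cell genes Cd3e and Cd8a were too low to be tested.

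Antigen presentation was higher at week 70. Of 14 tested genes of the class I pathway, 13 were called higher and none lower, with a relative median of 2.55. The light chain B2m had 293, 352 and 328 counts at day 15 against 2241 and 1765 at week 70. The heavy chain H2-K1 had 47, 74 and 36 against 933 and 803, and the peptide transporter Tap2 had 6, 7 and 6 against 177 and 172. Of 9 genes of the class II pathway, 8 were higher and 1 lower. The list summed to 33.2 to 35.5 CPM at day 15 and to 328 and 298 CPM at week 70. Its highest member, Lgmn, had 277, 309 and 265 counts against 2498 and 2305. Other members had fewer counts: H2-Ab1 had 3, 2 and 5 against 81 and 100, and Cd74, the invariant chain, had 6, 15 and 12 against 181 and 224. Ciita, the transactivator of class II genes, moved the other way, from 103, 94 and 118 counts to 17 and 21, a log2 fold change of -2.34 ± 0.29. The libraries of the ages did not overlap for the 13 and 8 genes that rose, beside 87.1% of all tested protein-coding genes.

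Complement genes rose on balance. Of 18 tested genes, 13 were higher and 2 lower, with a relative median of 1.78. C4b, the step after C1, had 3, 0 and 0 counts at day 15 against 833 and 1095 at week 70, a ratio of 1045 with a 95% counting interval from 357 to 5074. The C1q chain C1qa, made by microglia, went from 69, 83 and 82 counts to 1297 and 1098. C3 rose little, from 25, 28 and 20 counts to 39 and 52, and C2 and the C1 inhibitor gene Serping1, of the same pathway as C1 and C4, were not called. Of the members that fell, properdin (Cfp) went from 502, 557 and 562 counts to 39 and 42, and the lectin pathway protease Masp1 from 1078, 1136 and 1141 to 450 and 293.

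Interferon-stimulated genes were higher in 25 of 30 cases and lower in 2, with a relative median of 1.93, from low levels: the list summed to 99.4 to 103 CPM at day 15 and to 304 and 270 CPM at week 70. Ifit3b, an antiviral effector, had 0, 4 and 3 counts against 148 and 122. The interferon-inducible GTPase Gbp2 had 5, 3 and 5 against 92 and 92, and Ifi27 had 45, 48 and 40 against 790 and 703. Isg15 and Usp18, usual markers of type I interferon signalling, were not called, with 36, 27 and 21 counts against 39 and 32 for Isg15. Subunits of the transcription factor ISGF3 went against the list: Irf9 fell from 387, 405 and 389 to 178 and 114 and Stat2 from 544, 581 and 502 to 335 and 326.

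Cytokine and NF-kB genes rose in 25 of 29 cases. Neuronal and glial ligands led the list: Il33, an alarmin of oligodendrocytes and astrocytes, went from 16, 7 and 8 counts to 2182 and 2079, a log2 fold change of 7.79 ± 0.18. The neuronal chemokine Cx3cl1 went from 153, 161 and 115 to 13276 and 12130. Il34, which sustains microglia, went from 22, 27 and 13 to 929 and 712. Classical inflammatory cytokines were low at both ages. Il1a fell from 14, 25 and 14 counts to 8 and 3, a call lost with DESeq2, and Il1b, Il6, Ccl2 and Cxcl10 had too few counts to be tested. The receptor gene Tnfrsf1a rose from 59, 70 and 63 counts to 298 and 272, and Tlr4 had 24, 34 and 16 against 34 and 26 and was not called.

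**Figure D5:**
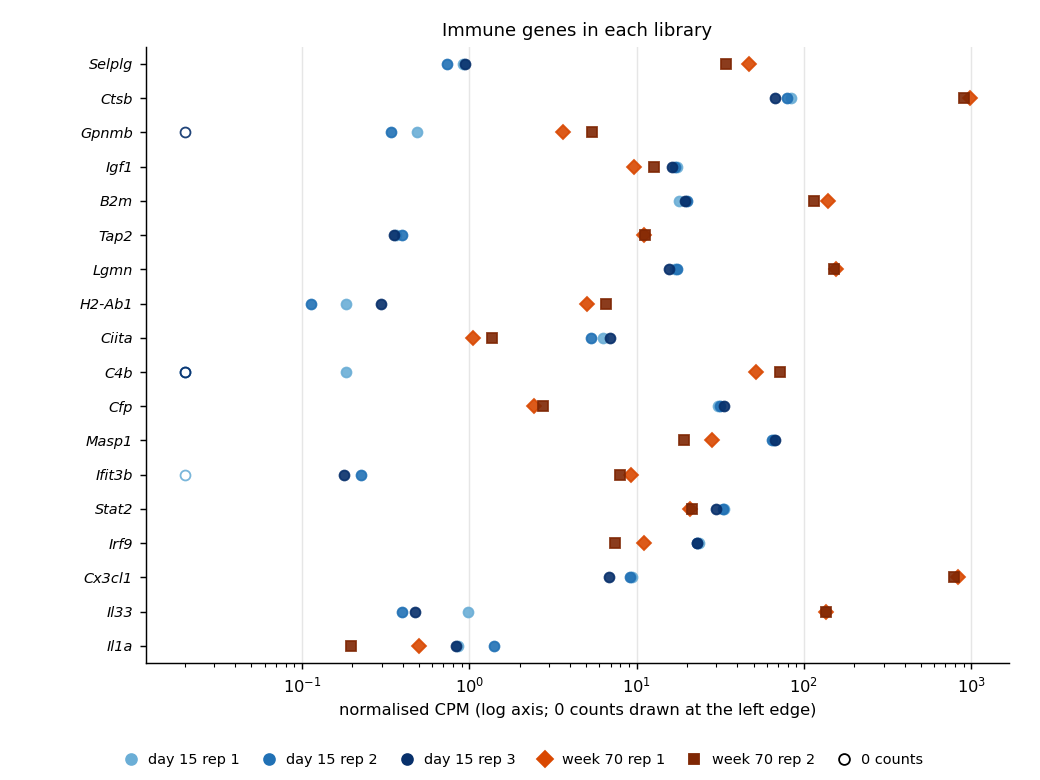
Normalised CPM (log axis) of 18 immune genes in each library, with circles for day 15, a diamond and a square for week 70 replicates 1 and 2, and open symbols at the left edge for libraries with 0 counts. Igf1, Ciita, Cfp, Masp1, Stat2, Irf9 and Il1a are lower at week 70, and the other genes shown are higher in both old libraries than in all fetal libraries.

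Vascular genes rose: 19 of 20 endothelial genes were called higher and none lower, with a relative median of 1.82. The list median was 2.05, and against the WT fetal libraries it was 0.70 with 15 genes higher. The tight junction gene Cldn5 went from 333, 303 and 226 counts to 1246 and 1272. The glucose transporter Slc2a1 went from 309, 295 and 262 to 2096 and 1796, but the WT fetal libraries had 1481, 1306 and 1428, and against them its log2 fold change was 0.92 in place of 2.87. Ly6a, a surface antigen, went from 4, 10 and 7 to 776 and 465. Pericyte and smooth muscle genes were higher in 8 of 13 cases and lower in 3, and 3 were higher against the WT fetal libraries. Of the caveola genes other than Cav1, 6 of 7 tested were higher and 1 lower. Cav2, which partners caveolin 1, rose from 223, 305 and 394 counts to 954 and 809, and Cavin1 from 108, 155 and 100 to 687 and 665. RNA of these genes was thus present in old brain while Cav1 stayed at 5 counts or fewer, and protein was not measured. The list median of 2.32 ran from 0.88 to 2.37 across the alternatives.

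Of 15 genes of fibroblasts and meninges, 9 were higher and 3 lower, with sums of 177 to 273 CPM at day 15 and of 1458 and 1473 CPM at week 70, and 2 were higher against the WT fetal libraries. Ptgds, a prostaglandin synthase of meninges and oligodendrocytes, rose from 167, 554 and 662 counts to 19090 and 18019. Choroid plexus genes moved with single libraries. Of 13 choroid plexus genes, 4 were higher and 1 lower, and the list summed to 394 to 493 CPM at day 15 and to 420 and 3172 CPM at week 70. Without week 70 replicate 1, 10 were higher, and without replicate 2, 2 were higher. Ttr had 4862, 6740 and 5354 counts at day 15 and was not called at 1.73 ± 0.88. Its log2 fold change was -2.54 without week 70 replicate 2, and it was called at 2.70 without replicate 1. Enpp2, which choroid plexus and oligodendrocytes share, rose from 316, 355 and 341 counts to 5559 and 12501. Of 3 tested pituitary genes, Pomc had 37, 47 and 31 counts at day 15 against 37 and 809 at week 70, and its call was lost without replicate 2. Fetal libraries differed in fibroblast collagens, with 177, 542 and 285 counts of Col3a1 in replicates 1 to 3.

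Red cell genes fell. Of 11 tested erythroid genes, 10 were lower and none higher, and the list summed to 3635 to 4503 CPM at day 15 and to 466 and 739 CPM at week 70. The adult beta globin gene Hbb-bs had 29383, 39234 and 34693 counts against 3623 and 5692, a call lost against the WT fetal libraries, where the log2 fold change was -0.27. The embryonic globin Hbb-y had 471, 716 and 600 counts against 2 and 1, and Hba-x had 102, 145 and 81 against none, at least 33.4-fold lower.

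Outside the lists, the largest changes among called genes with a mean of at least 50 counts included genes with few or no counts at one age. Fam107a, an actin-binding protein of astrocytes and neurons, rose from 18, 21 and 22 counts to 14403 and 10085, a log2 fold change of 9.34 ± 0.18. Sowahb had 0, 0 and 1 counts against 636 and 492, and the olfactory receptor gene Olfr287 had none at day 15 and 187 and 142 at week 70, at least 59.2-fold higher. Gpc2, a glypican of growing axons, had 1351, 1612 and 1501 counts against 0 and 3, a ratio of 915 with a 95% counting interval from 313 to 4437. The mitotic kinesin Kif18b, the endonuclease gene Ankle1, the transcription factor gene Tfap2c and Zfp663 had 0 counts in both old libraries, which puts them at least 36.5-fold, 58.0-fold, 61.6-fold and 92.6-fold lower.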

How the data were processed

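RNA was measured by bulk sequencing of poly-T selected RNA, per the labels' protocols. The authors deposited raw read counts per Ensembl gene for 8 libraries, per the file headers. The submitters' processing notes name FastQC, cutadapt, Trimmomatic, HISAT2, featureCounts and edgeR and both GRCm38 and GRCm39, and the build behind the counts, tool versions, strand setting and treatment of multi-mapping reads are not given in the sources used here. Values of overlapping, antisense and near-identical genes are therefore uncertain. Gene type, length and GC came from GENCODE release M21 (GRCm38), which matched 97.3% of 34299 identifiers, and 351 genes have a blank name.

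The 5 KO libraries were fitted with edgeR 4.0.16 in R 4.3.3: filterByExpr, TMM, two-sided quasi-likelihood F-test, Benjamini-Hochberg over all 20000 genes tested, of which 16390 (82%) were called at 0.05. Protein-coding genes were then read out. CPM are TMM-normalised, and the SE follows from the F statistic. A gene at 0 in every library of an age got a bound against 3 counts over the group, and 1 to 3 counts a ratio with an exact 95% interval. In counts simulated from these libraries, edgeR recovered 78.5% of 200 genes changed by 1 on the log2 scale (18952 genes tested, 8.72% of calls false) and 99% changed by 2 (18918 genes, 5.71% false). The simulation started from the fetal mean levels and changed only those 200 genes, evenly up and down. In the data 82% of genes were called, so the simulated shares do not carry over to the age comparison.

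The members, the 38 lists and the 20 pairs were chosen with earlier results of these data known. Genes were named by rule: in each list the highest level, the largest change and up to 2 called members against the majority, all pair members, the 8 largest rises and 8 largest falls elsewhere, and Cav1. Other list members named, and the region markers, were chosen after their values were seen. Listed genes that were not in the table by symbol were not analysed here. A few further genes are not reported here. Processed pseudogenes were assigned to parents with minimap2 2.31 (at least 50% aligned, 85% identity). Alternatives were RLE and upper-quartile scaling, other filters, DESeq2 1.42.0, all 8 libraries, the replicate block, protein-coding genes only, no mitochondrially encoded or haemoglobin genes, WT fetal libraries as reference, an offset on length and GC (mgcv 1.9.3), each library left out and a fold change threshold. Pseudogene counts added to parents was an alternative chosen after seeing the data.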

Additional observations from a re-analysis of the deposited data

How the results depend on the processing

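Of 19 alternatives, the number of protein-coding genes called moved by more than 1.5 times under 1, a required change of at least 1 on the log2 scale, which left 6788 genes (4134 higher, 2654 lower). Leaving out each library gave 11534 to 12287 calls. The replicate numbers do not pair the samples, since the ages share only 2 numbers and same-numbered libraries hardly deviated together (correlations of 0.033 and 0.0086). The replicate block gave 11359 calls. Small lists moved. Members called higher against the main counts were 2 of lymphocytes (main 1) with no filter, all 8 libraries, the offset on length and GC and the offset with the replicate block, and 3 with the WT fetal libraries as reference. For the pituitary (main 1) they were 2 with no filter and with DESeq2, for border macrophages 2 with a mean of at least 10 counts (main 4), for skeletal muscle 1 with DESeq2, all 8 libraries, the offset and the offset with block (main 2), and for brakes and pericytes 4 and 4 with the offset and block (main 7 and 8). The WT reference gave 14 radial glia genes lower (main 9) and 4 matrix, 3 pericyte, 2 fibroblast and 0 skeletal muscle genes higher (main 7, 8, 9 and 2). Leaving out single libraries gave 2 to 10 choroid plexus, 0 to 1 pituitary, 1 to 2 lymphocyte and 1 to 2 skeletal muscle genes higher. Of the results for named genes, 2700 kept direction and call, 38 lost the call, 12 gained one and 37 turned. Stab1, Rgs5, Glra1 and Hk2, none called, turned to -0.041, -0.051, -0.039 and -0.089 with upper-quartile scaling and to -0.063, -0.072, -0.059 and -0.11 with protein-coding genes only. Glra1 and Hk2 turned to -0.70 and -0.057 with the replicate block. With each library left out, Glra1 ran from -7.33 to 1.24, Hk2 from -0.087 to 0.39 and Ttr from -2.54 to 2.70, the lowest without week 70 replicate 2 and the highest without replicate 1. The WT reference turned Ccnd1 (-0.19), Pcna (0.092), Tbr1 (-0.24), Foxj1 (-0.48), Stab1 (-1.24), Higd1b (0.71), Acan (-1.39), Sp7 (-0.69), Grin2b (-0.25) and Hk2 (-1.56). The offset on length and GC turned Emx1 (-0.12), Foxj1 (-0.042), Igf1 (0.13), Stab1 (-0.95), Glra1 (-0.34) and Hk2 (-0.69), and with the replicate block these were -0.12, -0.14, 0.044, -0.97, -1.23 and -0.89. Pseudogene counts added turned Stmn1 (-0.82). The cause of these turns was not tested. With 2 libraries at week 70, region, sex-linked genes and age cannot be told apart, and genes under about 3 counts per library are below what this depth resolves.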
